A study of Mus musculus with 6 samples.

Results

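The genes described here are 9 regulators of cytokine mRNA decay, chosen by symbol from the 55394 genes measured in each library: Zfp36, Zfp36l1, Zfp36l2, Zc3h12a, Rc3h1, Rc3h2, Elavl1, Hnrnpd and Ythdf2. All 9 were found, with identifiers that match their symbols in the mouse annotation GENCODE M21, and 7 of them passed the filter for testing (1 FPKM or more in 3 or more libraries of the 6). FPKM is fragments per length of exon and per number of mapped reads, so that levels of different genes can be set side by side. Rc3h1 and Rc3h2 did not pass.

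The libraries were prepared by SMART-seq, a full-length cDNA method for few cells, from 1000 lung group 2 innate lymphoid cells (ILC2s) each, sorted from wild type neonates of C57BL/6 dams. In the Abx group (n = 3) the dams drank ampicillin, metronidazole, neomycin and vancomycin from gestation day 10 to 14, and in the Con group (n = 3) they were control dams. Only the dams were treated, and the labels and methods do not give, for these libraries, the age or sex of the pups, the number pooled per library or the litters. The p-values below therefore measure the spread between these libraries.

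Many cytokine mRNAs are kept short-lived by elements in their 3′ untranslated region (UTR). ZFP36 (tristetraprolin), ZFP36L1 and ZFP36L2 bind AU-rich elements through paired zinc fingers and recruit the CCR4-NOT deadenylase. ZC3H12A (Regnase-1) is an endonuclease that cuts stem-loops, and RC3H1 and RC3H2 (Roquin-1 and Roquin-2) bind similar stem-loops, among them the constitutive decay element. ELAVL1 (HuR) binds AU-rich elements and as a rule stabilises the mRNA, the isoforms of HNRNPD (AUF1) can act either way, and YTHDF2 brings mRNAs that carry m6A to deadenylation. In ILC2s, mRNAs for type 2 cytokines, GM-CSF and amphiregulin belong to the kind of transcript these proteins act on.

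The sites below are shown because 6 of the regulators carry the same element as many of the mRNAs they bind. The nonamer that ZFP36 proteins prefer, TTATTTATT, was searched on the sense strand of the longest 3′ UTR of each gene (GENCODE M21, GRCm38), and its first match is printed 5′ to 3′ with the nonamer in capitals. The first 3 sites lie in the 3′ UTRs of the ZFP36 family itself, and the last 3 in those of Csf2, Areg and Ptgs2, 3 of the mRNAs described below.
Zfp36, chr7:28376951-28376979, minus strand: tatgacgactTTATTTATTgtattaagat
Zfp36l1, chr12:80108167-80108195, minus strand: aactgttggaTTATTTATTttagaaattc
Zfp36l2, chr17:84184914-84184942, minus strand: actatttaacTTATTTATTatcttgtgaa
Csf2, chr11:54247329-54247357, minus strand: ttttaaatatTTATTTATTtatttattta
Areg, chr5:91148382-91148410, plus strand: tatttaagtgTTATTTATTttatagctca
Ptgs2, chr1:150105790-150105818, plus strand: ctgaccatatTTATTTATTtatgtgaaga
The nonamer was present in 6 of the 9 regulators. Each ZFP36 family mRNA had 1, as did Rc3h1 and Rc3h2, and Elavl1 had 8, counting overlapping matches. Zc3h12a, Hnrnpd and Ythdf2 had 0. Of 20996 protein-coding genes with a 3′ UTR, 7.59% had the nonamer. These genes include many with a UTR far shorter than the 4218 bases of Elavl1 or the 7181 bases of Rc3h1, and longer UTRs hold more matches.

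The constitutive decay element was searched as TTC, then C or T, A or G, C or T, and then GAA. It was found in 3 of the 9 regulators, Elavl1, Rc3h1 and Rc3h2, and in 5.36% of all genes with a 3′ UTR. The letters do not test whether a stem forms around them. Rc3h1 had 2 matches and Rc3h2 had 1. The first in each of these Roquin mRNAs is printed with the 9 letters in capitals, since Roquins bind this element.
Rc3h1, chr1:160968032-160968060, plus strand: tttgtttttgTTCTGTGAAtgaactttat
Rc3h2, chr2:37373802-37373830, minus strand: tttaattaacTTCTGTGAAgttgtttact

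The ZFP36 family made up nearly all of the regulator mRNA. Its summed level was 445, 625 and 1016 FPKM in Con libraries 1 to 3, and 1049, 303 and 488 FPKM in Abx libraries 1 to 3, between 87.8% and 97.6% of the FPKM of all 9 regulators in each library. Zfp36 alone was 52.4% to 77.5% of the family and ranked between 75 and 472 among all genes, by FPKM. Zfp36 was above Zfp36l1 in 6 of 6 libraries, and Zfp36l1 was above Elavl1 in 6 of 6. Elavl1, Ythdf2 and Zfp36l2 came next, with means over all libraries of 16.9, 16.2 and 14.6 FPKM, and did not keep one order. Elavl1 was above Ythdf2 in 3 of 6 libraries and Ythdf2 above Zfp36l2 in 4 of 6. By mean all 3 were above Hnrnpd, at 4.16 FPKM, with Zfp36l2 above it in 6 of 6 libraries. The lowest were Rc3h1, Zc3h12a and Rc3h2, with means of 1.92, 0.875 and 0.697 FPKM.

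**Figure D1:**
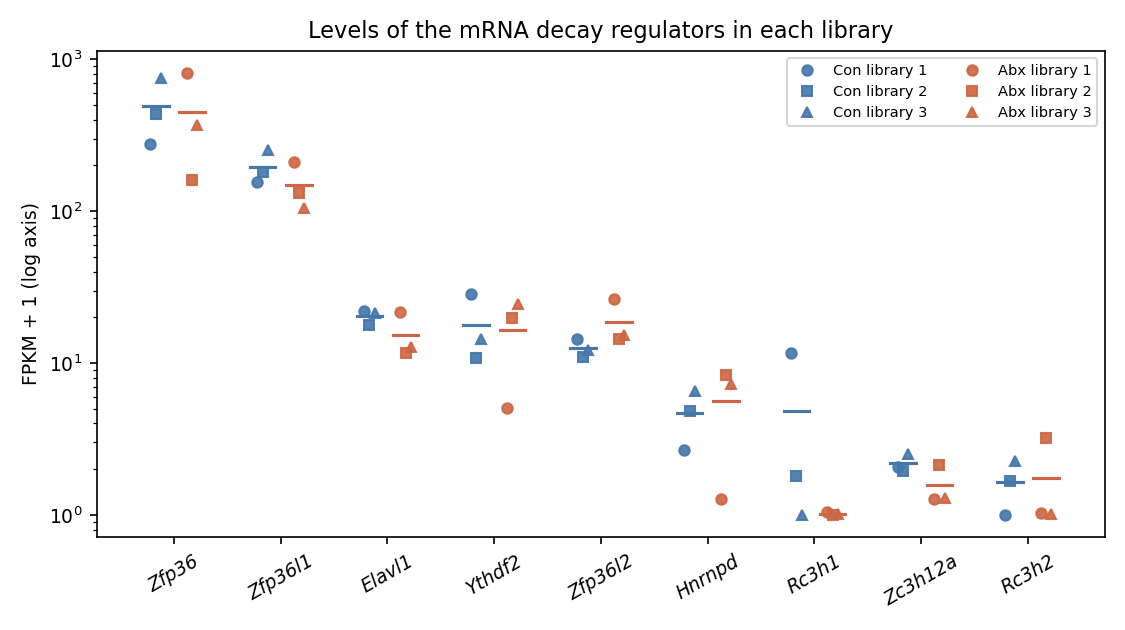
Level of each regulator in each of the 6 libraries, as FPKM + 1 on a log axis, ordered by the mean over all libraries. Symbols mark the libraries and bars the group means. Zfp36 and Zfp36l1 stand above the other 7 regulators in all libraries, and the Con and Abx points overlap for each of the 7 regulators that were tested.

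Values of the libraries that bear on these levels were as follows. Total FPKM was between 420941 and 489262, and 8574 to 9203 genes in Con and 7074 to 8193 in Abx reached 1 FPKM. The read depth is unknown, and counting error cannot be given. Of 18 ILC2 markers, 15 were tested, with summed levels of 4113 to 4354 FPKM in Con and 3224 to 3913 FPKM in Abx. Gata3 was at 33.9 FPKM or more in each library, but Ptgdr2 was listed at 0 throughout and Il1rl1 reached 2.94 FPKM at most. The 14 B cell markers summed to 613 to 848 FPKM in Con and 2003 to 2371 FPKM in Abx. Of 12 tested, 10 were positive, while 4097 of all 8718 genes tested were. The 2 negative ones, Cd22 and Cd79b, lay lower in Abx without overlap, and Ebf1 was under 1 FPKM in all libraries. For 12 T cell markers the sums were 1358 to 1550 FPKM in Con and 2730 to 3077 FPKM in Abx, and 8 of 9 tested were positive. The 8 NK cell markers summed to 2.45 to 28.8 FPKM and to 215 to 235 FPKM, in Abx nearly all of it Gzma, with Tbx21, Klrb1c and Prf1 listed at 0. Erythroid markers summed to 6422 to 14823 FPKM in Con and 3166 to 8659 FPKM in Abx. Those of mast cells and basophils summed to 328 to 472 FPKM and 185 to 295 FPKM, mostly Cpa3. Myeloid markers summed to 141 to 412 FPKM in Con and 183 to 369 FPKM in Abx, mostly Lyz2. The lineage antibodies of the sort bind, among others, CD3e, TCR-β, B220, NK1.1 and Ter119. Xist was at 3.78 to 5.09 FPKM in Con and 0 in Abx, so sex and exposure cannot be told apart. The part of other cells and of sex in the levels of the regulators and their targets was not tested, and fewer cells of a type and less RNA per cell cannot be told apart in such libraries.

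No regulator passed the test between Abx and Con, and their libraries overlapped between the groups. The comparison asks whether antibiotics given to the dam changed the level of these mRNAs in the ILC2s of the pups. In a two-sided limma fit of log2(FPKM + 1), with p adjusted by Benjamini-Hochberg over all 8718 genes that passed the filter, 0 of the 7 regulators tested were called, which needed an adjusted p under 0.05 and more than a 2-fold change. Fold changes are given in log2, with the standard error (SE) after ±. Over all genes tested, 0.0574% were called. At an unadjusted p under 0.05 there were 0 of 7 regulators, against 11.0% of all genes, and 0 of 7 had groups that did not overlap, against 17.2% of all genes. The fitted log2 fold change was positive for 1 regulator and negative for 6, with a median of -0.31, where the median over all genes was -0.06. With quantile normalization 3 were positive and 4 negative. The smallest adjusted p among them in limma was 0.707, for Zfp36l1.

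**Figure D2:**
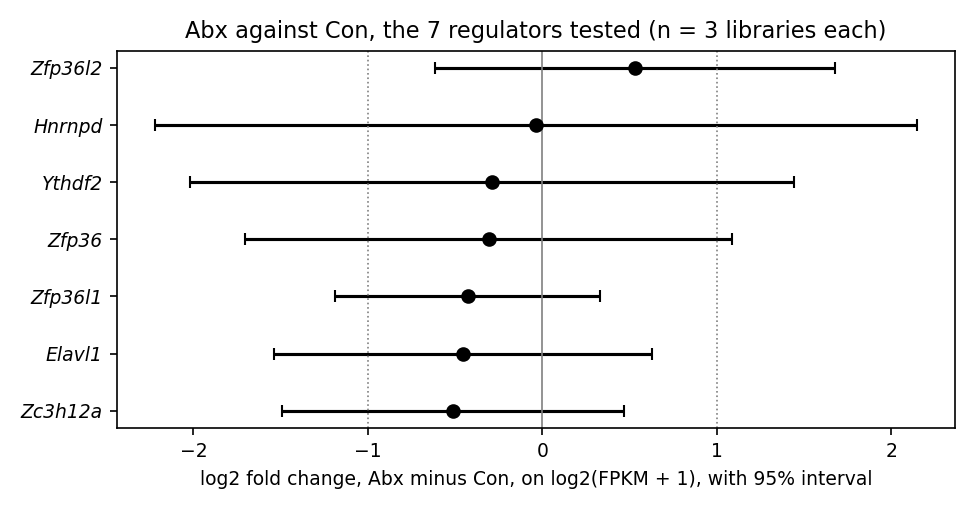
Fitted log2 fold change of the 7 regulators tested, Abx minus Con on log2(FPKM + 1), with limma's 95% intervals (bars, n = 3 libraries in each group). The solid line marks no difference and the dotted lines a change of 2-fold. Every interval crosses the solid line, and those of Zfp36l1, Elavl1 and Zc3h12a end below the upper dotted line.

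Zfp36 (ENSMUSG00000044786, chr7:28376784-28380253 of GRCm38, minus strand) measured 276, 436 and 752 FPKM in Con libraries 1, 2 and 3, against 813, 158 and 370.5 FPKM in Abx libraries 1, 2 and 3. Abx library 1 was the highest of the 6 and Abx library 2 the lowest, so that the Abx group spanned all of Con. The Con mean was 488 ± 242 FPKM and the Abx mean 447 ± 334 FPKM (SD over 3 libraries). The log2 fold change was -0.31 ± 0.60 (SE, limma adjusted p = 0.893), with a 95% interval of -1.70 to 1.09. It was -0.89 without Abx library 1 and 0.29 without Abx library 2.

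The spread of Zfp36 was wide for a gene of its level. Its highest library was 5.13 times its lowest, a range of 2.35 on the scale of log2(FPKM + 1). Among 198 genes of similar mean level, the median range was 0.94, and 96% had a narrower range than Zfp36. For Zfp36l1 the range was 1.28, and 61.4% of 583 genes of similar level were narrower. At the other end, Elavl1 ranged over 0.92, with 5.44% of 2850 genes of similar level narrower.

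Zfp36l1 (ENSMUSG00000021127, chr12:80107754-80113013, minus strand) measured 155, 179 and 252 FPKM in the Con libraries, against 211, 131 and 103 FPKM in Abx. Abx libraries 2 and 3 were below every Con library, and Abx library 1 was above the lower 2. Its log2 fold change was -0.43 ± 0.33 (SE, limma adjusted p = 0.707). The 95% interval of the fold was 0.439 to 1.26 on this scale, so a rise to 2-fold lies outside it and a fall to 0.5-fold does not.

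Zfp36l2 (ENSMUSG00000045817, chr17:84183931-84187947, minus strand), the least abundant of the family, was the only regulator with a positive log2 fold change in this fit. Zfp36, Hnrnpd and Ythdf2 also turned positive when 1 of certain libraries was left out, and Zc3h12a and Hnrnpd with quantile normalization. Zfp36l2 measured 13.4, 9.97 and 11.3 FPKM in the Con libraries, against 25.5, 13.3 and 14.4 FPKM in Abx. The groups overlapped only because Abx library 2, at 13.33 FPKM, was just below Con library 1, at 13.41 FPKM. The log2 fold change was 0.53 ± 0.49 (SE, limma adjusted p = 0.758), with a 95% interval of -0.62 to 1.68, and it was 0.25 without Abx library 1.

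The shares within the family also differed between libraries. Zfp36l1 was 11.6, 18 and 22.4 times Zfp36l2 in Con, against 8.27, 9.82 and 7.18 times in Abx, so that all 3 Abx ratios lay below all 3 Con ratios. Zfp36 over Zfp36l1 was 1.78, 2.43 and 2.98 in Con, against 3.85, 1.21 and 3.59 in Abx, which overlapped. A ratio within a library does not depend on a factor that scales the whole library, but it does not show which of the 2 genes differed.

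Zfp36l2 over Elavl1, a destabilising over a stabilising binder of AU-rich elements, was 0.638, 0.597 and 0.555 in Con, against 1.22, 1.25 and 1.23 in Abx. The spread within each group was small beside the gap between them. This ratio was singled out after its values were seen. Among the 21 pairs of tested regulators, the groups did not overlap in 2, this pair and Zfp36l1 with Zfp36l2, and no test was run on ratios. Of single genes, 17.2% did not overlap. The share over pairs of all genes was not computed, so the 2 of 21 are given as a description.

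**Figure D3:**
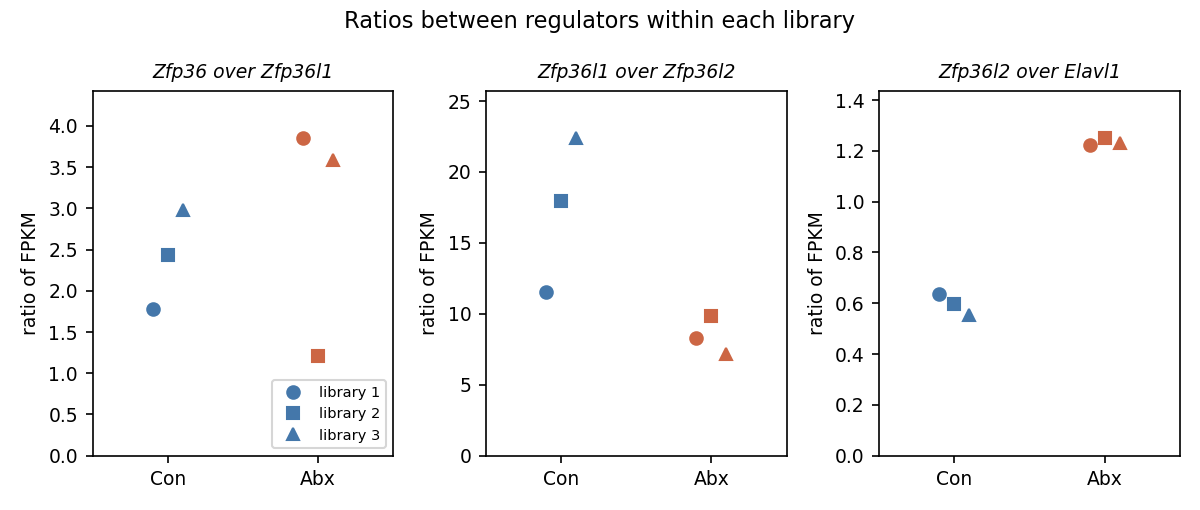
Ratios of FPKM between regulators within each library, with Con in blue and Abx in orange and a linear axis from 0. Zfp36 over Zfp36l1 overlaps between the groups, Zfp36l1 over Zfp36l2 is lower in all Abx libraries, and Zfp36l2 over Elavl1 lies at 0.555 to 0.638 in Con and 1.22 to 1.25 in Abx.

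The stem-loop regulators were near the limit of detection. Zc3h12a (ENSMUSG00000042677, chr4:125118423-125127840, minus strand) measured 1.07, 0.96 and 1.52 FPKM in the Con libraries, against 0.27, 1.14 and 0.29 FPKM in Abx. Abx libraries 1 and 3 were below every Con library and Abx library 2 was within Con. The log2 fold change was -0.51 ± 0.42 (SE, limma adjusted p = 0.725). The value is sensitive to the pseudocount at this level. It was -1.16 with a pseudocount of 0.1 and 0.19 with quantile normalization.

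Rc3h1 (ENSMUSG00000040423, chr1:160906418-160974978, plus strand) measured 10.7, 0.80 and 0 FPKM in the Con libraries, against 0.04, 0 and 0.02 FPKM in Abx. A single library, Con library 1, held nearly all of its signal (exact two-sided permutation test, p = 0.4, with 0.1 as the lowest p possible for 3 against 3). Rc3h2 (ENSMUSG00000075376, chr2:37370069-37422903, minus strand) measured 0, 0.68 and 1.26 FPKM in the Con libraries, against 0.03, 2.20 and 0.01 FPKM in Abx (exact permutation test, p = 1). Con library 1 held Rc3h1 and no Rc3h2, and Con library 3 and Abx library 2 held Rc3h2 and no Rc3h1. Con library 2 held both, at 0.80 and 0.68 FPKM. A listed 0 in these files was read as not detected.

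Elavl1 (ENSMUSG00000040028, chr8:4285382-4325413, minus strand) was the steadiest regulator. It measured 21.03, 16.7 and 20.3 FPKM in the Con libraries, against 20.8, 10.7 and 11.7 FPKM in Abx. Abx libraries 2 and 3 were below all Con libraries, and Abx library 1 was within Con. The log2 fold change was -0.45 ± 0.47 (SE, limma adjusted p = 0.787), with a 95% interval of -1.54 to 0.63.

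Hnrnpd and Ythdf2 spanned a range over the 6 libraries like that of other genes of their level, of which 32.3% and 47.5% had a narrower one. Hnrnpd (ENSMUSG00000000568, chr5:99955935-99978938, minus strand) measured 1.69, 3.81 and 5.50 FPKM in the Con libraries, against 0.28, 7.39 and 6.26 FPKM in Abx, its highest library being 26.4 times its lowest. Its log2 fold change was -0.04 ± 0.94 (SE, limma adjusted p = 0.994). It was -0.37 with a pseudocount of 0.1, and turned to 0.32 with quantile normalization and to 0.83 without Abx library 1.

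Ythdf2 (ENSMUSG00000040025, chr4:132184912-132212303, minus strand) measured 27.6, 9.86 and 13.4 FPKM in the Con libraries, against 4.05, 18.8 and 23.5 FPKM in Abx. Its log2 fold change was -0.29 ± 0.74 (SE, limma adjusted p = 0.917), and it turned to 0.42 without Abx library 1. That library was the lowest of the 6 for Ythdf2, Hnrnpd and Zc3h12a and the highest for Zfp36 and Zfp36l2.

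The level of Zfp36 followed that of Fos. Zfp36 is itself an immediate-early gene, switched on within the first transcriptional response to a stimulus, as Fos is. Among 8711 tested genes other than the regulators, Fos had the highest Pearson correlation with Zfp36 over the 6 libraries (r = 0.992 on log2(FPKM + 1)), ahead of Tcn2 (0.970) and Pink1 (0.962). Fos measured 1692, 2416 and 4222 FPKM in the Con libraries, against 4190.3, 1202 and 2473 FPKM in Abx. The same 2 libraries, Con library 3 and Abx library 1, were highest for both genes, and Abx library 2 was lowest for both. With 6 libraries and so many genes searched, the best match of each of the 7 tested regulators had r between 0.989 and 0.998, so an r of this size was found for every regulator. For Zfp36l1 the 3 best matches were Cep83 (0.989), Chst2 (0.980) and Isy1 (0.974).

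The order of libraries was also shared, for most pairs, with some of the other immediate-early genes. Of the 15 pairs of libraries, Ier2 ordered 14 as Zfp36 did, Fos, Jun and Klf6 ordered 13, and Dusp1, Ier5, Jund and Zfp36l1 ordered 12. Not all genes of this class did so. Junb ordered 10 pairs alike, Egr1 8, Btg2, Dusp2, Myc and Nr4a1 7, Ier3 6 and Egr3 3. These genes are named after their values were seen, and the share of all genes tested with such counts was not computed. Jun measured 140.5, 293 and 503 FPKM in the Con libraries, against 675, 203 and 420.3 FPKM in Abx. Immediate-early genes can also respond while tissue is dissociated and cells are sorted, and their part in the level of Zfp36 was not tested.

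**Figure D4:**
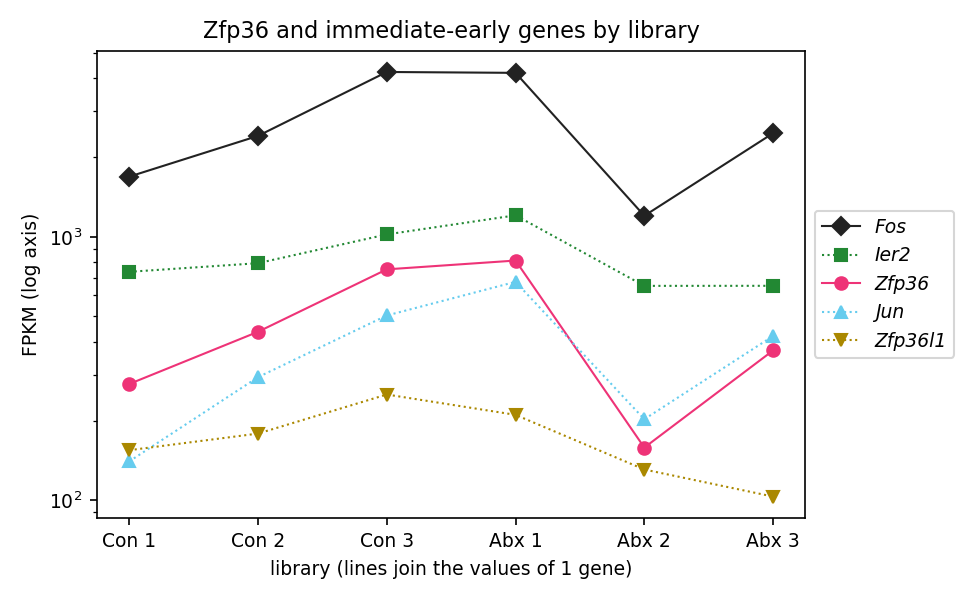
FPKM of Zfp36, Zfp36l1 and the immediate-early genes Fos, Ier2 and Jun in each library, on a log axis. Lines join the values of 1 gene and have no order in time. Zfp36 and Fos are both highest in Con library 3 and Abx library 1 and lowest in Abx library 2.

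The promoter of Zfp36 is printed in part because sites for factors of the immediate-early response lie close to its start. The promoters are those of RefSeq (GRCm38.p6), 250 bases before to 50 bases after the start of transcription, and 8 of the 9 regulators had an entry. They were searched on both strands for the CArG box of serum response factor, for the EGR site GCGGGGGCG and for the AP-1 site (TGA, then C or G, then TCA). Zfp36 had a CArG box 48 bases before the start and an EGR site 96 bases before it, shown with the site in capitals. This RefSeq start lies inside the span of the gene given above, since a longer GENCODE transcript starts further upstream.
Zfp36 CArG box, chr7:28379267-28379296, minus strand: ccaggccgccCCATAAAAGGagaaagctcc
Zfp36 EGR site, chr7:28379315-28379343, minus strand: gagctacgccGCGGGGGCGcgtcccggaa
A CArG box was in 1.63% of 32851 promoters and an EGR site in 2.91%. Of the other regulators, Hnrnpd had a CArG box and Rc3h1 an AP-1 site, which 5.20% of all promoters have. A match gives the letters only and does not show that a factor was bound.

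Most of the reported target mRNAs that were tested had a lower fitted level in Abx, but none was called. The list of 40 mRNAs was taken from general knowledge of ZFP36, Regnase-1 and Roquin targets, and 29 of them were tested. Of these, 8 had a positive and 21 a negative log2 fold change, with a median of -0.88, against -0.06 for all genes. This depends on the filter. Without it 39 targets were fitted, 15 positive and 24 negative, with a median of -0.41, against 0.005 for all genes. By limma, 0 of 29 were called, with a smallest adjusted p of 0.0911. At an unadjusted limma p under 0.05 there were 10 negative, against 545 of the 8718 genes tested. Il4 and Nfkbia passed the filter through Abx alone and are not counted by p or overlap. Of the other 27, 9 lay lower and 0 higher in Abx without overlap. The 9 lower, none of which passed through Con alone, were 31.0% of the 29, where 8.73% of all genes tested lay lower in Abx without overlap. Leaving out the 4 members that are also on the immediate-early list, 8 of 25 lay lower without overlap and the median stayed at -0.88. Relative to the mean of Con, the median of the list was -0.13, 0.00 and 0.08 in Con, against -0.38, -0.82 and -0.83 in Abx. With each library left out in turn, a choice added after seeing the data, 10 to 13 targets (34.5% to 44.8%) lay lower without overlap, against 11.7% to 15.9% of all genes.

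Csf2, which encodes GM-CSF and has 4 nonamers in its 3′ UTR, was the target with the highest mean after Fos, and was above Fos in the 3 Con libraries and in Abx library 2. It measured 3512, 3242 and 4259 FPKM in the Con libraries, against 1344, 2072 and 1401 FPKM in Abx, with each Abx library below each Con library. Its log2 fold change was -1.21 ± 0.22 (SE, limma adjusted p = 0.0911). Areg, which encodes amphiregulin, an epithelial growth factor made by ILC2s, measured 657, 783 and 780.3 FPKM in the Con libraries, against 393, 278 and 197 FPKM in Abx. Its log2 fold change was -1.40 ± 0.27 (SE, limma adjusted p = 0.0911).

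Ptgs2, which encodes the inducible cyclooxygenase, measured 42.5, 15.3 and 59.0 FPKM in the Con libraries, against 1.05, 11.8 and 0.71 FPKM in Abx. It had the largest difference among the targets whose groups did not overlap, with a log2 fold change of -3.30 ± 0.94 (SE, limma adjusted p = 0.190). Abx library 2 came close to the lowest Con library. Nfkbiz, which encodes the NF-kB co-regulator IkB-zeta and is cut by Regnase-1, measured 100.3, 151 and 176 FPKM in the Con libraries, against 22.2, 23.8 and 57.8 FPKM in Abx, a log2 fold change of -2.11 ± 0.43 (SE, limma adjusted p = 0.0967).

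Cdkn1a, Icos, Cxcl2, Pim1 and Ier3 were the other targets lower in Abx without overlap, with log2 fold changes of -1.24, -1.37, -1.07, -1.03 and -1.01 and limma adjusted p from 0.0911 to 0.638. Csf2, Areg, Nfkbiz, Cdkn1a, Cxcl2, Pim1 and Ier3 are named after their values were seen. Nfkbia, which encodes the NF-kB inhibitor IkB-alpha, was at 0.67, 0.39 and 0.61 FPKM in Con, against 4.14, 6.89 and 10.4 FPKM in Abx. Il4 was listed at 0 in Con and was at 3.16, 2.57 and 5.46 FPKM in Abx. These 2 passed the filter only through Abx, the group where they are high, so their values are given with no test. Il5, Il13 and Il9 were listed at 0 in all Con libraries and in 1 Abx library each, and did not pass the filter. In Abx libraries 2 and 3, Il5 was at 57.7 and 24.5 FPKM and Il13 at 10.8 and 10.1 FPKM. Il9 was at 8.98 FPKM in Abx library 1 and lower in Abx library 3. These cytokine mRNAs were thus detected in Abx only, opposite in direction to most of the targets tested, and were given no test.

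**Figure D5:**
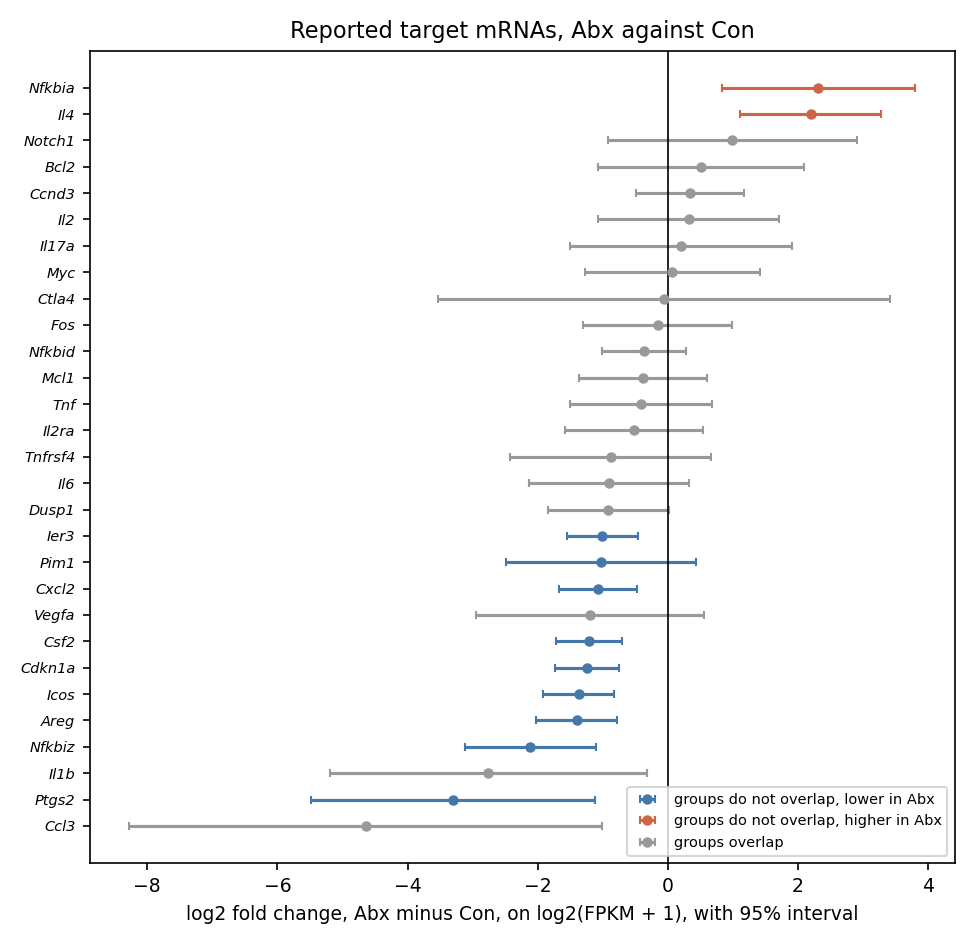
Fitted log2 fold change of the 29 reported target mRNAs tested, Abx minus Con on log2(FPKM + 1), with limma's 95% intervals (bars, n = 3 libraries in each group). Blue and orange mark targets whose groups do not overlap, 9 lower and 2 higher in Abx, and grey the targets that overlap. The 2 higher passed the filter through Abx alone, and their intervals are not read as a test. None of them passed the adjusted test.

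A nonamer or a constitutive decay element was held by 18 of the 29 targets tested. Of these 18, 8 lay lower in Abx without overlap. Of the 29 targets tested, 13 had the nonamer, and 5 of these 13 lay lower in Abx without overlap (Areg, Csf2, Cxcl2, Pim1 and Ptgs2). The constitutive decay element was in 7, all 7 with a negative log2 fold change and 3 of them lower without overlap (Icos, Ier3 and Nfkbiz). Of the 11 targets with neither element, 7 had a negative log2 fold change and 1 lay lower without overlap. The median log2 fold change was -0.92 with the nonamer and -0.41 with the constitutive decay element. It was -0.96 with either and -0.52 with neither, so targets with the constitutive decay element did not have the lower median. The Roquin element of Icos and that of Nfkbiz, with the 9 letters in capitals, are printed because both mRNAs are known for their control by Roquin or Regnase-1.
Icos, chr1:60999479-60999507, plus strand: agaacaaaatTTCTGTGAAataaaatctg
Nfkbiz, chr16:55812607-55812635, minus strand: tgtaagttgtTTCTATGAAacaaacccat
Over all tested genes with a 3′ UTR, the 512 with the nonamer had a median log2 fold change of -0.26, and the 6804 without it -0.13. Lower in Abx without overlap were 11.9% of the former and 9.26% of the latter. Genes with the nonamer had longer 3′ UTRs (a median of 2175 against 944 bases). When the genes were split by 3′ UTR length into 3 classes of about equal size, the medians with and without the nonamer were -0.08 and 0.00 (short), -0.45 and -0.21 (middle) and -0.25 and -0.21 (long). Lower in Abx without overlap were 4.26% and 7.53% of the short, 17.1% and 9.49% of the middle and 10.8% and 11.0% of the long class, so the difference lay in the middle class, with 140 genes that hold the nonamer. The 392 genes with the constitutive decay element had a median of -0.11, and the 6924 without it -0.14. Of these, 9.69% with the element and 9.43% without it lay lower in Abx without overlap, nearly the same share. Genes are not independent replicates, and these values are given as a description.

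No gene of the wider mRNA decay lists was called. These 101 genes cover deadenylation, decapping, the exosome, m6A, partners of the regulators and other AU-rich element binding proteins. Of them, 78 were tested, 44 with a positive and 34 with a negative log2 fold change (median 0.11). Elavl4 passed the filter through Con alone, so its p is not counted. Before adjustment, limma p was under 0.05 for 2 that lay higher in Abx and for Tob2, which lay lower. Over all genes that share was 11.0%. In 10 the Abx libraries lay above Con without overlap and in 7 below, 21.8% of the list, where 17.2% of all genes did not overlap. Without Elavl4, 6 lay below. Of the CCR4-NOT and PAN deadenylase genes 14 were tested, 7 in each direction, with a median of 0.00, and of -0.27 to 0.16 with each library left out. Tob2, an adaptor of this complex, was the only 1 of them without overlap, at 61.9, 59.4 and 59.0 FPKM in Con, against 26.0, 16.5 and 13.1 FPKM in Abx (log2 fold change -1.70 ± 0.37, limma adjusted p = 0.106). Its Con values lay close together, and each Abx value was under 0.5 times the lowest of them. Btg1, a related adaptor and the most abundant gene of the list, had a log2 fold change of -0.02.

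Genes of decapping and 5′ decay had a median log2 fold change of 0.66, with 11 of 14 positive, against 4097 of 8718 over all genes. In 4 of the 14 the Abx libraries lay above Con without overlap, against 740 of 8718. Among these 4 were Lsm7, Ddx6 and Lsm6, which encode parts of the Lsm ring and the helicase that activates decapping. Their log2 fold changes were 1.45, 1.32 and 1.08 (limma adjusted p = 0.238, 0.530 and 0.365). The most abundant gene, Lsm4, had a log2 fold change of 0.22. For the RNA exosome, which degrades RNA from the 3′ end, 10 of 13 were positive, with a median of 0.82. With each library left out in turn these medians ranged from 0.27 to 1.17 (decapping) and from 0.46 to 0.97 (exosome). Mtrex, its nuclear helicase, measured 0.03, 9.20 and 2.52 FPKM in the Con libraries, against 12.7, 10.1 and 17.7 FPKM in Abx (log2 fold change 2.09 ± 0.95, limma adjusted p = 0.476). Exosc7 and Exosc2, of the exosome core, had log2 fold changes of 1.26 and 0.82. Exosc3, the most abundant gene of the list, had 1.49, and its groups overlapped.

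For the m6A genes, 5 of 12 were positive, with a median of -0.04, which was positive, 0.04 to 0.35, with each library left out in turn, and -0.37 with a pseudocount of 0.1. Hnrnpa2b1, the most abundant of them, had a log2 fold change of 0.10. The nuclear reader Ythdc1 had a log2 fold change of -1.17, and the eraser Fto and the writer subunit Rbm15b had 1.08 and 0.92, all without overlap and none called. Among partners and regulators of the 9 proteins, 4 of 13 were positive (median -0.31, and -0.60 to -0.35 with each library left out). Mapk14, which encodes p38 alpha, the kinase that through MK2 inactivates ZFP36, measured 13.3, 10.7 and 21.8 FPKM in the Con libraries, against 0.19, 8.95 and 10.3 FPKM in Abx (log2 fold change -1.61 ± 0.97, limma adjusted p = 0.629). Cyfip1 had -1.57. The most abundant of these, Ywhab, which encodes a 14-3-3 protein of the family that binds phosphorylated ZFP36, had a log2 fold change of 0.00.

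Of 12 other genes for AU-rich element binding proteins, 7 were positive (median 0.20, and 0.03 to 0.26 with each library left out). Elavl4, a relative of Elavl1, measured 2.74, 1.52 and 1.89 FPKM in the Con libraries, against 0.02, 0.03 and 0 FPKM in Abx. It passed the filter only through Con, the group where it is high, and is given with no test. Fxr1 and Ptbp1 had log2 fold changes of -1.22 and -0.64 without overlap, and Hnrnpab, the most abundant gene of the list, 0.35. The 20 immediate-early genes, of which 18 were tested, had 7 positive and 11 negative log2 fold changes (median -0.12). That median ranged from -0.48 to 0.06 with each library left out in turn. Atf3, Nr4a2, Nr4a1, Junb and Ier3 lay lower in Abx without overlap, 27.8% of those tested against 8.73% of all genes, the last 2 named after their values were seen.

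The genes measured that overlap a regulator on the opposite strand had little signal. The kit does not mark the strand, so reads of a regulator and of a gene on the opposite strand cannot be told apart. Gm44710, which overlaps Zfp36, and AC132455.1, which overlaps Zfp36l2, were listed at 0 in all libraries, Gm17092 at Hnrnpd reached 0.09 FPKM, and Ccl25 at Elavl1 reached 1.69 FPKM in 1 Con library. Gm26669, which overlaps Zfp36l1, was not analysed here. Zfp36, Zfp36l1 and Zfp36l2 encode proteins with closely similar zinc fingers, and how reads shared between genes were assigned is not given in the sources used here.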

How the data were processed

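SMART-seq libraries of 1000 sorted lung ILC2s (3 Con, 3 Abx) were measured. The authors trimmed reads with Cutadapt, mapped them with HISAT2 and deposited FPKM per gene from StringTie, without further scaling between libraries. The processing notes of the submitters also name Bowtie 0.12.2 and older mouse builds, and the methods name a human annotation, while the identifiers are mouse. Of 55394 identifiers, 55134 are in GENCODE M21. Groups and replicate numbers come from the labels. The files analysed hold FPKM and not read counts, so the DESeq2 comparison of the authors could not be rerun.

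The 8718 genes at 1 FPKM or more in 3 or more of the 6 libraries were tested, two-sided, with limma 3.58.1 (R 4.3.3; lmFit and eBayes with trend) on log2(FPKM + 1). P-values were adjusted over these genes by Benjamini-Hochberg. Fold changes on this scale understate those of low genes. A call needed an adjusted p under 0.05 and more than a 2-fold change. The regulators under the filter, Rc3h1 and Rc3h2, got an exact permutation test. Other genes under the filter got no such test. The fit was tested on simulated data. Alternatives were pseudocounts of 0.1 and 0.01, 3 other scalings, 2 other filters, robust variances, other thresholds, a replicate block and leaving out each library.

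The members, gene lists and tests were chosen with earlier results of these data known, and the lists come from general knowledge. All 9 regulators are named. From each list the text names up to 3 genes with the largest difference among those without overlap and the most abundant gene, plus Il4, Il5, Il13, Il9 and Icos, and other names are said to be chosen later. The genes most like a regulator are given for the most abundant one and the one with the smallest p. Genes of similar level are those tested whose mean lay within a factor of 2 of that of the regulator.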

Additional observations from a re-analysis of the deposited data

How the results depend on the processing

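The number of regulators called was 0 under every alternative run. Of 103 refits of single regulators, 77 used a setting that can change the fold change, and 9 of these reversed it. None of the 103 was called, with limma adjusted p from 0.389 to 0.999. With quantile normalization Zc3h12a reversed to 0.19 and Hnrnpd to 0.32. With 1 library left out, the log2 fold change ranged from -0.89 to 0.29 for Zfp36, -0.52 to 0.83 for Hnrnpd, -0.72 to 0.42 for Ythdf2, -0.71 to -0.20 for Zfp36l1, 0.25 to 0.70 for Zfp36l2, -0.76 to -0.39 for Zc3h12a and -0.74 to -0.28 for Elavl1. Their median ranged from -0.48 to -0.23, that of the targets from -0.81 to -0.66 and that of the wider decay genes from 0.013 (without Abx library 3) to 0.28 (without Abx library 1). Over all genes, 5 were called, and 0 with a pseudocount of 0.1 or 0.01, with median centring, with each library rescaled to the same total FPKM or without a filter. Leaving out a library gave 0 to 2, and an unadjusted p with a fold change over 2 gave 814. Without a filter the median of the targets was -0.41, over 39 fitted, with 15 positive and 24 negative. The median of the wider decay genes was 0.27 with a mean of at least 5 FPKM. Rescaling to the same total FPKM moved the median of all genes from -0.06 to -0.17, and the median of the regulators was then -0.39, over 8 tested. The cause of these shifts was not tested.

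Replicate numbers 1 to 3 occur in both groups. Deviations of same-numbered libraries from their group means correlated at -0.02, -0.03 and 0.01, so the numbers were not taken to pair them. With the replicate block, 0 regulators and 0 genes in all were called.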
